A study of Homo sapiens with 12 samples.

Results

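L540 cells come from a Hodgkin lymphoma and grow as an established line with the receptor CD30, the product of TNFRSF8, on the surface, and T104 is a monoclonal antibody against CD30. Here 2 culture conditions are set against each other, L540 cells given T104 at 10 µg/ml after 16 h of preculture (2 arrays) and untreated L540 cells cultured alongside (2 arrays). They belong to a set of 12 arrays in 6 groups of biological duplicates on the Illumina HumanHT-12 v3 BeadChip, the other groups being cells given the ligand as an Fc fusion (CD30L-Fc, also called CD153-Fc) or the antibody PW30, T427 or T408. The sample titles and the growth protocol give 24 h of exposure, whereas the design text gives 8 h and calls the titles wrong, so the time is 8 h or 24 h. That text also names an antibody T428 where the titles have T408, and the titles' name is used here. All agents were added in PBS, the sources used here do not say whether the untreated flasks also received PBS, and no control antibody was analysed here. T104 against untreated cells therefore holds everything that came with adding the antibody. All arrays come from 1 cell line, and whether duplicates came from separate passages is not given, so p-values measure the spread between these duplicate cultures.

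The genes described were all those with a detection p (the rank of a probe against negative control beads) below 0.01 on both arrays of T104 or on both arrays of untreated cells. That rule took 9720 of 28082 annotated probes. With 1 probe per gene, the brightest, it gave 7714 of the 8113 genes tested in the whole series. Of these, 7289 were detected in both groups, 178 in T104 cells only and 247 in untreated cells only. Levels are log2 signals after background correction and quantile normalization, and a change is the T104 mean minus the untreated mean ± the SE (standard error) that limma gives, with n = 2 arrays on each side. A gene was called when its Benjamini-Hochberg adjusted p lay under 0.05. Permuting 2 and 2 arrays exactly gives no p under 0.333, so the calls rest on a spread pooled over the 6 groups, and the number of arrays limits their precision.

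CD30 has no enzyme activity of its own. When it is bound and clustered, its tail recruits TRAF adaptors, which start the NF-kB and MAP kinase pathways. Resting NF-kB dimers are held in the cytoplasm by IkB proteins or as unprocessed precursors. Once freed, they enter the nucleus and switch on genes for cytokines, survival factors and their own inhibitors, so the pathway carries its feedback with it. Hodgkin cells are known for NF-kB activity that is already high without stimulation.

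The duplicates resembled each other, with Pearson's r across probes of 0.9882 to 0.9929 over the 6 groups. The median raw signal was 140.39 and 141.86 on the T104 arrays and 148.59 and 151.68 on the untreated arrays, a difference that quantile normalization removes. The arrays detected 11441 and 10910 probes in T104 cells and 11278 and 11061 in untreated cells. Of 12 Hodgkin cell line markers on the array 11 were detected in T104 or untreated cells, CCL22 being the exception. CCL17 was detected in T104 cells only, and 6 of the 10 detected in both groups were called higher. The summed signal of this list, after normalization and on the linear scale, was 52629 and 55368 on the T104 arrays. On the untreated arrays it was 28940 and 23615. Of the markers of other cells 3 of 12 T cell, 2 of 12 cytotoxic granule, 2 of 13 B cell, 2 of 14 monocyte and macrophage, and 1 of 12 fibroblast and epithelial markers on the array were detected, and 0 of these 10 were called. The 10 were CD247, CD2, CD4, GZMB, NKG7, BLK, MZB1, CD68, CSF1R and PDGFRA, while CD3D, GZMA, CD79A, CD14 and COL1A1 were below the detection limit. The summed signal of the T cell list, likewise after normalization, was 10652 and 10735 on the T104 arrays and 7484 and 9022 on the untreated arrays. That of the monocyte and macrophage list was 1306 and 1382 on the T104 arrays and 1043 and 1077 on the untreated arrays. The part of either in the results was not tested. The TNFRSF8 probe itself read 7.54 and 7.29 in T104 cells and 7.60 and 7.33 in untreated cells. These overlap, and the difference of -0.05 ± 0.31 was not called (adjusted p = 0.956).

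T104 cells differed from untreated cells at 751 of the 7714 genes, which is 9.74%, with 469 higher (6.08%) and 282 lower (3.66%). Among the 7289 genes detected in both groups the counts were 398 higher (5.46%) and 228 lower (3.13%), 8.59% in all, and the median change of all of them was -0.04. The rises were the larger changes. They had a median of 0.76 against -0.62 for the falls, 118 rises but 23 falls reached 2-fold, and 22 rises but 0 falls reached 4-fold. Array by array, 626 of the 626 called genes had T104 arrays wholly above or below the untreated arrays, as did 50.7% of all 7289. The calls thinned out when an array was dropped. Without T104 replicate 1 there were 414 and without T104 replicate 2 there were 440, against 533 and 545 without an untreated array. A median scaling of the arrays in place of quantile normalization gave 368 higher and 294 lower, 55.6% higher against 62.5% in the quantile-normalised data. Since whole cultures were measured, a change in the share of cells that express a gene and a change of level per cell cannot be told apart.

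**Figure D1:**
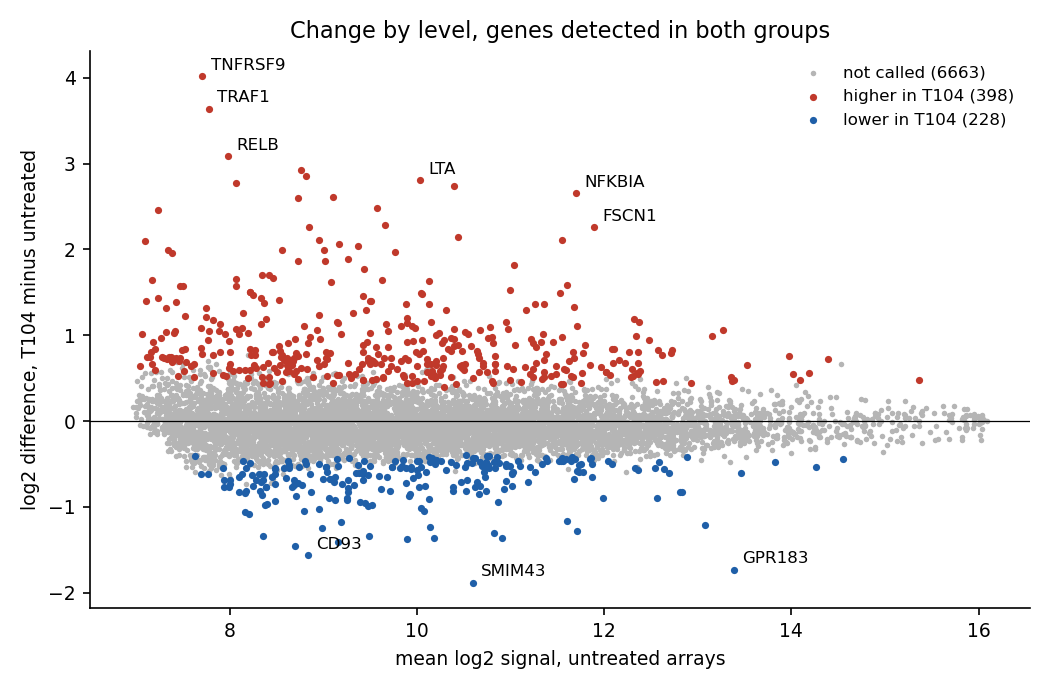
Log2 difference between T104 and untreated cells (y axis) against the mean log2 signal of the untreated arrays (x axis) for the 7289 genes detected in both groups. Red points are the 398 genes higher in T104 cells, blue points the 228 lower and grey points the genes that were not called. The rises reach 4.02 and the falls -1.88.

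The 20 largest rises included 3 TNF superfamily members (TNFRSF9, LTA and CD70), the NF-kB subunits RELB and NFKB2, the pathway's inhibitors NFKBIA and TNFAIP3, and TRAF1. Upstream sequence is shown for those of the 20 whose promoter holds an NF-kB-like motif, since subunits and known targets of the factor rose. The motif searched was GGG, any 2 bases, TT, any base and CC, on either strand, in a window of 250 bases before to 50 bases after the annotated gene start in RefSeq (GRCh38.p14). Of the 20 genes 16 had a window and 4 of those held the motif. The 150 bases before the start are given 5′ to 3′ on the gene's strand, with the matches in capitals.
TNFRSF9: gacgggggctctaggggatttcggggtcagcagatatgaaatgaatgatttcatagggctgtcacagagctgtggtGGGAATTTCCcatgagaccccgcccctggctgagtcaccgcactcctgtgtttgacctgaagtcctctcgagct
EBI3: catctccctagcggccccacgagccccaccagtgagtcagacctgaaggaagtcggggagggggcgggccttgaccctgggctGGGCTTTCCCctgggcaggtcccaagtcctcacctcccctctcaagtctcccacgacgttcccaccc
TNFAIP3: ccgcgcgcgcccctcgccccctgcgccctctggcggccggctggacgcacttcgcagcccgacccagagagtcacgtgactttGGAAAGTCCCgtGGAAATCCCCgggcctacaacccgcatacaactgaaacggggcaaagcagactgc
NFKBIA: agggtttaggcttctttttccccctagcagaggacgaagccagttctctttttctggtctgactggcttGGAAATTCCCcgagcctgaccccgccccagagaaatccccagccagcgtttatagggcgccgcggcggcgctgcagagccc
The match began 74 bases before the start in TNFRSF9 (chr1:7940840-7940989, minus strand), 67 before in EBI3 (chr19:4229373-4229522, plus strand) and 81 before in NFKBIA (chr14:35404750-35404899, minus strand). TNFAIP3 (chr6:137867109-137867258, plus strand) held 2 matches, which began 67 and 55 bases before the start. Of all 27305 windows 5.67% held the motif, and the share was 13.3% of the 330 windows of genes called higher, 5.1% of the 196 of genes called lower and 6.27% of the 5581 of genes that were not called (genes detected in both groups). The AP-1 motif TGANTCA, which reads the same on both strands, was in 6.97% of windows of genes called higher, 7.14% of those called lower, 3.85% of those not called and 7.76% of all 27305 windows. Of the 15 largest falls 13 had a window and 0 of those held the NF-kB motif. A match is a match of letters and no measured binding site, and these shares were not tested.

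Receptors and ligands of the TNF superfamily held the top place. TNFRSF9, which encodes the costimulatory receptor 4-1BB, read 11.78 and 11.68 in T104 cells and 7.87 and 7.55 in untreated cells. It rose by 4.02 ± 0.15, or 16.2-fold (adjusted p = 2.1e-08), more than any other gene detected in both groups. FAS, the death receptor, read 9.73 and 9.72 in T104 cells against 8.01 and 8.42 in untreated cells, a rise of 1.51 ± 0.20 (adjusted p = 0.000379). TNFRSF14, the receptor HVEM, also passed at 0.66 ± 0.18, but not without untreated replicate 1 or without either T104 array. Over the 4 fits that left out 1 array it lay between 0.44 and 0.89. The other 4 of 7 receptors detected in both groups, TNFRSF8 among them, were not called. TNFRSF4, which encodes OX40, was detected on both T104 arrays (8.67 and 8.36) and on 1 untreated array (6.67 and 7.49). It rose by 1.43 ± 0.27 and was not called without T104 replicate 1 (adjusted p = 0.0504).

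Ligands of the family moved the same way. LTA, lymphotoxin alpha, read 12.91 and 12.75 in T104 cells and 9.95 and 10.10 in untreated cells, a 7-fold rise (2.81 ± 0.12, adjusted p = 5.69e-08). CD70, the ligand of CD27, read 9.50 and 9.90 against 7.02 and 7.47 in untreated cells and rose by 2.46 ± 0.21. TNF read 10.54 and 10.58 in T104 cells and 8.36 and 8.77 in untreated cells, a rise of 1.99 ± 0.19. In each of the 3 genes the gap between groups was several times the gap between duplicates. TNFSF10, which encodes the death ligand TRAIL, rose by 1.40 ± 0.16, and TNFSF14, which encodes LIGHT, by 0.61 ± 0.15. TNFSF14 lost its call in each of the 4 fits that left out 1 array, where its difference was 0.54 to 0.69. In all, 5 of 8 ligands detected in both groups rose, 0 fell, and their median change was 1.01.

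The adaptors and kinases between receptor and NF-kB changed unevenly. TRAF1, an adaptor that binds the tail of CD30, read 11.35 and 11.49 in T104 cells and 7.57 and 7.99 in untreated cells and rose 12.4-fold (3.64 ± 0.19, adjusted p = 1.38e-07). TANK, which binds TRAF proteins, rose by 1.46 ± 0.14, and MAP3K8, the kinase TPL2, by 1.05 ± 0.13. IKBKE, an IkB kinase relative, was detected on both T104 arrays (8.14 and 7.76) and on 1 untreated array (6.55 and 7.01) and rose by 1.17 ± 0.17. The list had 16 members in both groups, of which 4 were higher and 1 lower with a median of 0.08. These shares are 25% higher and 6.25% lower, against 5.46% and 3.13% of all 7289 genes. The core kinase genes CHUK (-0.19), IKBKB (-0.10), IKBKG (0.02) and MAP3K14 (-0.26) were not called. The lower member was TAB1, a partner of the kinase TAK1, at -0.55 (adjusted p = 0.0481). When 1 array was left out 3 to 5 members were higher and 0 lower.

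The subunits themselves rose unevenly. RELB, a subunit of the alternative pathway, read 10.99 and 11.16 in T104 cells and 8.02 and 7.94 in untreated cells (3.09 ± 0.11, adjusted p = 2.1e-08). NFKB2, the precursor that pairs with RELB, read 11.14 and 11.08 in T104 cells and 8.73 and 8.97 in untreated cells (2.26 ± 0.13). NFKB1 rose by 0.79 ± 0.13, while RELA, the main activating subunit of the classical pathway, differed by 0.19 (adjusted p = 0.531). The 2 subunits of the alternative pathway thus showed the larger changes, and all 3 rises passed in each fit that left out 1 array.

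Of the 11 inhibitors and feedback regulators of the pathway detected in both groups 9 were higher. NFKBIA, the inhibitor IkB alpha, read 14.38 and 14.34 in T104 cells and 11.55 and 11.85 in untreated cells, a 6.31-fold rise (2.66 ± 0.13, adjusted p = 1.13e-07). TNFAIP3, the ubiquitin-editing enzyme A20, read 13.29 and 12.99 in T104 cells and 10.36 and 10.44 in untreated cells (2.74 ± 0.14). NFKBIZ, a nuclear IkB protein, rose by 1.97 ± 0.13 and NFKBIE, IkB epsilon, by 1.96 ± 0.14. TNIP1 and TNIP2, binding partners of A20, changed by 1.63 and 1.09, CYLD, a deubiquitinase, by 1.38, BCL3 by 0.91 and OTULIN, which removes linear ubiquitin chains, by 0.59. None of the 11 fell and their median was 1.38 against -0.04 for all genes, and 7 to 9 rose when 1 array was left out. NFKBIB (0.48) and N4BP1 (-0.02) were not called. ZC3H12A, an RNase that cuts cytokine messages, was detected on both T104 arrays and 1 untreated array and rose by 1.63 ± 0.15.

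**Figure D2:**
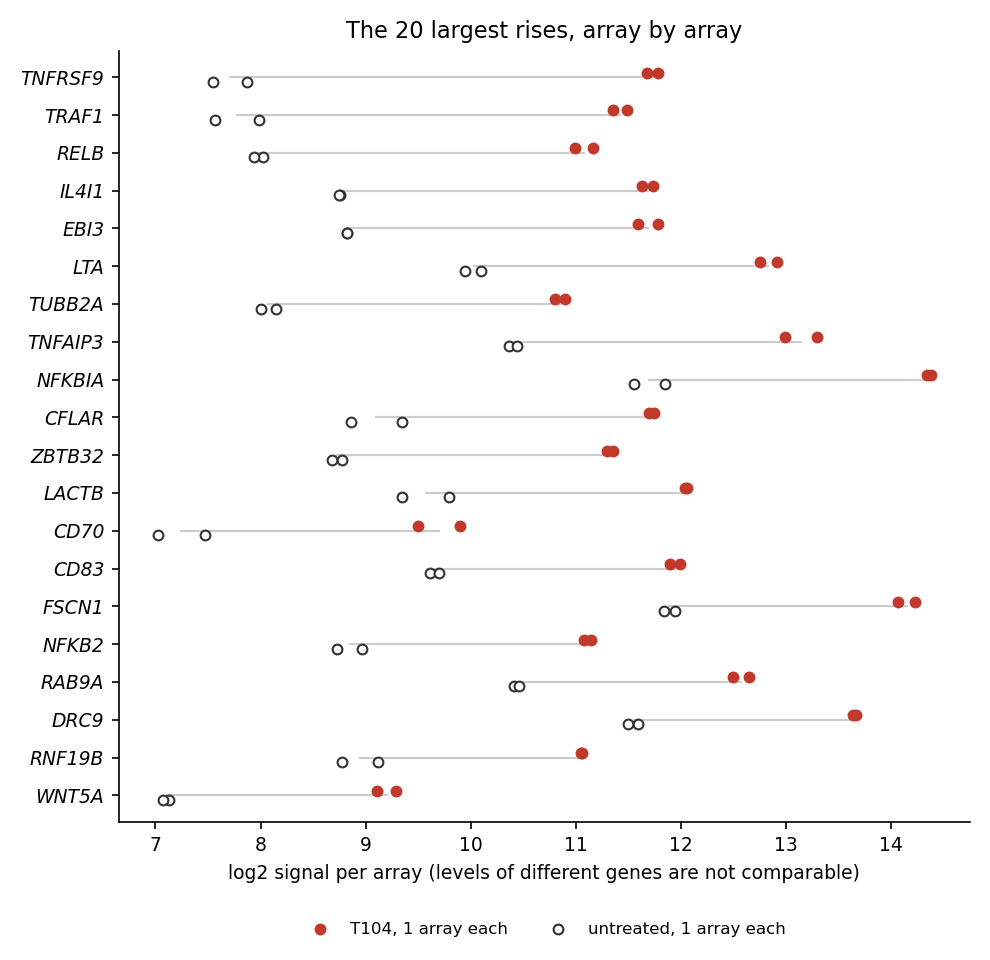
Log2 signal on each array (x axis) for the 20 genes with the largest rises (y axis), with filled red circles for the 2 T104 arrays and open circles for the 2 untreated arrays. The grey line joins the group means. In each gene both T104 arrays lie to the right of both untreated arrays, by group means 2.10 (WNT5A) to 4.02 (TNFRSF9) apart.

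Cytokines, chemokines and surface molecules by which lymphocytes meet other cells followed. EBI3, a subunit of IL-27, read 11.59 and 11.78 in T104 cells and 8.82 and 8.82 in untreated cells, a rise of 2.86 ± 0.14. IL15 read 8.63 and 8.82 in T104 cells and 5.61 and 5.93 in untreated cells, where neither array detected it. It was at least 3.43-fold higher (adjusted p = 1.38e-06). Here and below, such a bound sets the mean of the group that detected the gene against the dimmest detected signal on each array of the other group. Such a gene met the detection rule through the group where it was high. Its adjusted p is that of the fitted difference and adds no separate support. IL32 rose by 0.97 ± 0.12. OSM passed at 0.49 ± 0.13 but not without untreated replicate 1 or either T104 array. With EBI3 and IL32 it made 3 of 13 interleukins and growth factors detected in both groups, 0 of which fell.

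Chemokine genes were few above background. CXCL10, which attracts activated T cells, was detected in T104 cells only, at 7.87 and 8.23 against 5.59 and 5.21 in untreated cells, and was at least 2.15-fold higher. CCL17, the chemokine TARC for which Hodgkin cells are known, read 7.50 and 7.83 in T104 cells and 5.15 and 4.90 in untreated cells and was at least 1.64-fold higher (adjusted p = 1.32e-05). CCL5 read 12.69 and 12.57 in T104 cells and 11.24 and 11.29 in untreated cells, a rise of 1.36 ± 0.12. Among the receptors CXCR4 rose by 1.82 ± 0.17, GPR132, a lysolipid and proton-sensing receptor, by 2.04 ± 0.15, and PTGER4, a prostaglandin E receptor, by 1.33 ± 0.22. GPR84, a medium-chain fatty acid receptor, was at least 3.17-fold higher, with 8.73 and 8.49 in T104 cells against 5.76 and 5.40 in untreated cells.

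CD80, the ligand of CD28 and CTLA4, read 8.48 and 8.40 in T104 cells and 4.98 and 5.34 in untreated cells, where it was below detection, and was at least 2.82-fold higher (adjusted p = 1.38e-07). SLAMF1, a self-binding receptor of lymphocytes, was at least 3.85-fold higher, at 8.99 and 8.80 in T104 cells and 6.08 and 6.30 in untreated cells. CD83, a marker of mature dendritic cells, read 11.90 and 11.99 in T104 cells and 9.61 and 9.70 in untreated cells, a rise of 2.28 ± 0.12. The fall in this list was CD93, described with the other falls. Of 11 such molecules detected in both groups 4 rose and 1 fell, with a median of 0.05. When 1 array was left out 1 to 4 rose, CD83 in each.

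Receptors for cytokines rose more often than they fell, 7 higher and 1 lower of 18 detected in both groups with a median of 0.35. IL27RA, the receptor chain for IL-27, rose by 1.29 ± 0.14, IL21R by 1.07 ± 0.13 and IFNGR2 by 0.83 ± 0.12. IL7R went down, at 9.68 and 9.76 in T104 cells and 10.60 and 10.45 in untreated cells (-0.81 ± 0.12, adjusted p = 0.000851). With 1 array left out the count of rises was 5 or 6, and IL7R stayed lower. Downstream of these receptors STAT5A rose by 1.59 ± 0.16 and TYK2 by 0.99 ± 0.15, STAT4 fell by 0.71 on the log2 scale, and 4 of 22 JAK-STAT members in all were higher.

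Genes known as targets of interferon or members of the IRF family were raised in part, 8 higher and 0 lower of 35 detected in both groups, while the median of the 35 was 0.07. IFIH1, the RNA sensor MDA5, read 10.55 and 10.62 in T104 cells and 8.96 and 8.50 in untreated cells (1.86 ± 0.15). EPSTI1 rose by 1.67 ± 0.13 and IRF1, itself an NF-kB target, by 1.37 ± 0.14. IFI44L was lower, detected in untreated cells only (7.54 and 7.58, against 6.19 and 6.22 in T104 cells) and at least 1.53-fold lower after T104. With 1 array left out 6 to 8 of the 35 rose. In antigen presentation TAP1, the peptide transporter, read 14.70 and 14.77 in T104 cells and 13.95 and 14.01 in untreated cells (0.76 ± 0.11). It passed in each fit without 1 array. That list had 35 members in both groups with 4 higher, 1 lower and a median of 0.24, and 1 to 6 were higher when 1 array was left out.

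Of the genes that decide on survival, CFLAR, which encodes the caspase-8 inhibitor c-FLIP, read 11.74 and 11.70 in T104 cells and 8.86 and 9.35 in untreated cells, a 6.12-fold rise (2.61 ± 0.16). BCL2L1, which encodes BCL-XL, read 13.07 and 12.96 in T104 cells and 11.51 and 11.55 in untreated cells (1.49 ± 0.13). IER3 rose by 0.92 ± 0.16, while BIRC2 (0.58) lost its call in 3 and TNFAIP8 (0.69) in 2 of the 4 fits that left out 1 array. BCL2 (0.13) and MCL1 (0.04) were not called. Thus 5 of 14 anti-apoptotic genes rose and 0 fell, median 0.04. Of 13 pro-apoptotic BCL2 relatives, caspases and death adaptors 1 rose, the adaptor TRADD at 0.71 ± 0.14, which was not called without untreated replicate 1 or T104 replicate 2. The difference between these lists was not tested.

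Of the AP-1 family and its partners 4 of 13 genes rose, 2 or 3 when 1 array was left out, and of the KLF, EGR and other immediate early factors 4 of 13, as in each fit without 1 array. ATF3 rose by 1.07 ± 0.12 and BATF, an AP-1 partner of lymphocytes, by 0.68 ± 0.12. JUNB, long known to be high in Hodgkin cells, passed at 0.73 ± 0.16 and lost the call without untreated replicate 2 or T104 replicate 1. KLF6 rose by 1.87 ± 0.19, IER5 by 0.93 ± 0.12 and KLF13 by 1.05 ± 0.14. DUSP1, a phosphatase that switches off MAP kinases, read 12.62 and 12.31 in T104 cells and 11.16 and 11.17 in untreated cells (1.30 ± 0.13), as 1 of 23 MAP kinase and phosphatase genes called.

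Among lymphoid transcription factors ZBTB32, a repressor of lymphocyte activation genes, stood out at 11.35 and 11.30 in T104 cells against 8.78 and 8.68 in untreated cells (2.60 ± 0.14, adjusted p = 2.85e-07). GATA3 rose by 0.75 ± 0.14. ARID5B, a DNA-binding cofactor of lymphoid development, read 9.57 and 9.48 in T104 cells and 10.90 and 10.74 in untreated cells, a fall of 1.30 on the log2 scale. TOX was detected in untreated cells only, 7.56 and 7.81 against 6.09 and 6.45 in T104 cells, at least 1.67-fold lower. Over the list 4 of 20 rose and 2 fell. Other regulators that rose were HEY1, a Notch target, by 1.70 ± 0.17, RARA, a retinoic acid receptor, by 1.40 ± 0.13, and EZH2, a histone methyltransferase, by 1.16 ± 0.14. HDAC4 fell by 0.99, to 8.38 and 8.59 in T104 cells against 9.55 and 9.41 in untreated cells.

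Large rises were also found in single genes of the cytoskeleton, vesicle traffic and metabolism. TUBB2A, a beta-tubulin, read 10.80 and 10.90 in T104 cells and 8.00 and 8.15 in untreated cells (2.78 ± 0.12), the only call among 18 tubulins. FSCN1, the actin bundler fascin and a marker of Hodgkin cells, read 14.07 and 14.23 in T104 cells and 11.94 and 11.84 in untreated cells (2.26 ± 0.12). Of 48 actin and motility genes 6 rose and 0 fell, 4 or 5 with 1 array left out.

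RAB9A, which returns cargo from late endosomes to the Golgi, read 12.50 and 12.65 in T104 cells and 10.41 and 10.46 in untreated cells (2.14 ± 0.12). RAB29 rose by 1.77 ± 0.13, DENND3, a Rab activator, by 1.65 ± 0.21 and RAB8B 1.99-fold (adjusted p = 0.000335). Rab GTPases and their regulators counted 11 higher and 4 lower of 61, with a median of 0.04 that lay near that of all genes, and 8 to 10 were higher and 1 to 3 lower when 1 array was left out. STX4, a plasma membrane SNARE, rose by 1.40 ± 0.12, and DRAM1, a lysosomal protein, by 1.70 ± 0.17. ADAM8, a membrane protease, rose by 1.99 ± 0.12 and SDC4, the proteoglycan syndecan-4, was at least 3.24-fold higher.

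IL4I1, a secreted oxidase of aromatic amino acids, read 11.63 and 11.73 in T104 cells and 8.76 and 8.75 in untreated cells, a 7.59-fold rise (2.92 ± 0.14, adjusted p = 1.13e-07). LACTB, a mitochondrial protein, rose by 2.48 ± 0.17 and WNT5A, a secreted Wnt ligand, by 2.10 ± 0.17. DRC9, named for the dynein regulatory complex of cilia, rose by 2.11 ± 0.12, as did RNF19B, a ubiquitin ligase (2.11 ± 0.16). In cholesterol metabolism 4 of 25 genes rose, namely INSIG1, an endoplasmic reticulum retention factor (1.49 ± 0.16), MYLIP, which degrades the LDL receptor (1.11 ± 0.15), SQLE (0.78 ± 0.14) and HMGCS1 (0.73 ± 0.13). All 4 passed in each fit without 1 array, and 0 of the 25 fell. CDKN1A, the cell cycle inhibitor p21, read 13.43 and 13.60 in T104 cells and 12.14 and 12.51 in untreated cells (1.19 ± 0.17). It was the only call among 16 CDK inhibitors and p53 targets detected in both groups, with a median of 0.00. That is 6.25% higher, near the 5.46% of all 7289 genes. CDK6 rose by 0.74 ± 0.13, while of 56 genes of G1/S and DNA replication 2 rose (3.57%) and 1 fell (1.79%). Of 27 genes of the unfolded protein and amino acid response 5 rose, 2 to 5 with 1 array left out, and of these HYOU1 (0.64 ± 0.11) and DDIT4 (0.89 ± 0.12) passed in each such fit.

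**Figure D3:**
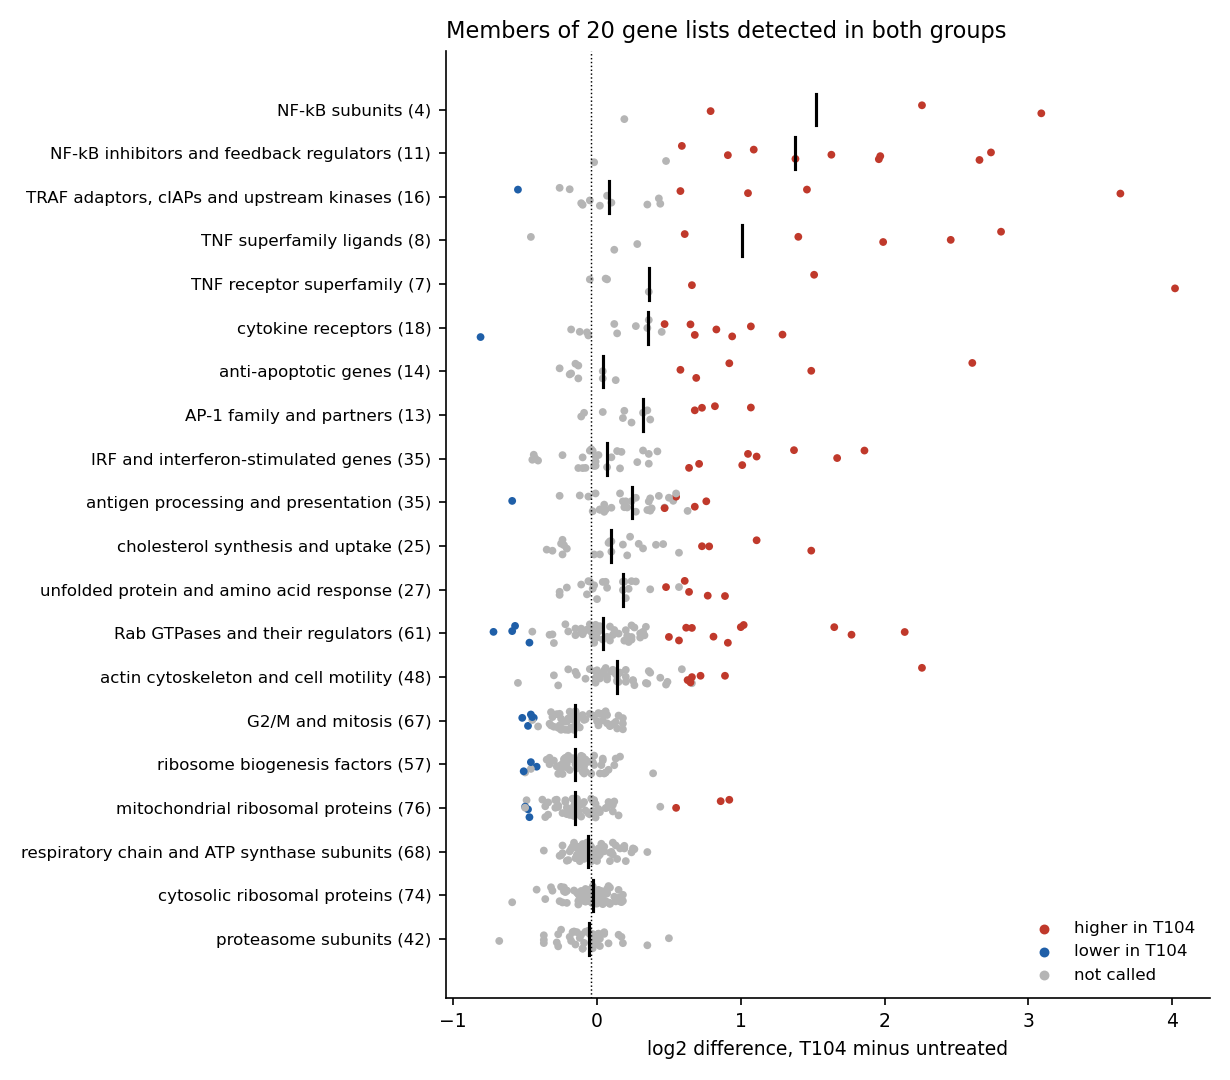
Log2 difference between T104 and untreated cells (x axis) for each member detected in both groups of 20 gene lists (y axis, number of members in brackets). Red is called higher in T104 cells, blue called lower and grey not called, the black bar is the list's median and the dotted line the median of all 7289 genes (-0.04). The NF-kB subunits, NF-kB inhibitors and TNF ligands have medians of 1.53, 1.38 and 1.01, and the lists from G2/M and mitosis downward have medians of -0.15 to -0.03.

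Some carriers, channels and enzymes of sugar and lipid chemistry rose and others fell. Solute carriers detected in both groups were called about as often as all 7289 genes. Their shares were 6.62% higher and 2.94% lower, against 5.46% and 3.13%. Of 136 solute carriers 9 rose and 4 fell, with a median of -0.06, and 6 to 10 were higher and 1 to 3 lower when 1 array was left out. SLC66A2 rose by 1.36 ± 0.11, at 12.74 and 12.71 in T104 cells and 11.39 and 11.34 in untreated cells, and SLC20A1, a phosphate carrier, by 1.06 ± 0.14. SLC50A1, a sugar transporter, rose by 0.89 ± 0.13 and SLC15A4, which carries histidine and peptides in endosomes, by 0.82 ± 0.12. CLIC2 rose by 1.66 ± 0.18 and CLIC4 by 1.01 ± 0.17, both of a family named as intracellular chloride channels. KCNJ2, an inward-rectifying potassium channel, was detected in T104 cells only, at 7.06 and 7.19 against 5.36 and 5.56 in untreated cells, and was at least 1.13-fold higher. Among glycosylation enzymes 7 of 57 rose and 4 fell, against 3 to 5 higher and 1 to 3 lower when 1 array was left out. FUT4, which makes the CD15 epitope by which pathologists recognise Hodgkin cells, read 11.75 and 11.71 in T104 cells and 10.78 and 10.56 in untreated cells (1.06 ± 0.12). GCNT1, which branches O-glycans, rose by 1.05 ± 0.12 and CHST7, a sulfotransferase, by 1.03 ± 0.15. PLD2, a phospholipase D, rose by 1.32 ± 0.14 and MTMR4, a lipid phosphatase, by 0.97 ± 0.17, 2 of the 6 rises among 42 phosphodiesterases, phospholipases and phosphoinositide enzymes (2 to 6 rises with 1 array left out).

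Kinases and adaptors below antigen receptors were raised in places. PRKCD, protein kinase C delta, read 11.51 and 11.48 in T104 cells and 10.02 and 10.25 in untreated cells (1.36 ± 0.16). STK17B, a kinase linked to apoptosis, rose by 1.39 ± 0.20 and MAP3K4 by 0.88 ± 0.12, and with PRKCD they belong to 8 rises and 0 falls among 69 serine/threonine kinases (5 to 7 rises with 1 array left out). MALT1, the protease of the complex that links antigen receptors to NF-kB, read 9.23 and 8.77 in T104 cells and 7.95 and 7.69 in untreated cells (1.18 ± 0.16). DOK2, an inhibitory adaptor, was detected in untreated cells only and was at least 1.53-fold lower, at 6.36 and 6.46 in T104 cells and 7.33 and 7.78 in untreated cells. PHLPP1, a phosphatase that acts on AKT, fell by 0.96 on the log2 scale and SGK1, a kinase related to AKT, by 0.81. PHLPP2 went the other way and rose by 0.60 ± 0.13 (0.50 to 0.70 with 1 array left out). Of 22 genes of the PI3K, AKT and mTOR pathway 3 rose and 3 fell (13.6% each), with a median of -0.03. The shares of all 7289 genes were 5.46% and 3.13%. IRAK2, a kinase of the interleukin-1 and Toll-like receptor pathway, was at least 1.88-fold higher, at 7.76 and 7.96 in T104 cells and 5.52 and 5.17 in untreated cells. PDE4B, which breaks down cyclic AMP, read 8.58 and 8.58 in T104 cells and 9.43 and 9.10 in untreated cells, a fall of 0.69.

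Of 175 ubiquitin ligases and deubiquitinases 4 rose (2.29%) and 3 fell (1.71%), below the 5.46% and 3.13% of all 7289 genes. RNF19B and PELI1 (0.67 ± 0.11) were among the rises and RNF144A (-0.89 ± 0.14) among the falls. When 1 array was left out 2 or 3 were higher and 2 or 3 lower. The autophagy receptors SQSTM1 and OPTN rose by 0.98 ± 0.16 and 0.84 ± 0.13. Of 54 genes on the autophagy and lysosome list 3 rose (5.56%) and 2 fell (3.7%), with a median of -0.01. These shares lay near those of all 7289 genes. Among 105 chromatin modifiers 6 rose and 6 fell, against 1 to 3 higher and 2 to 4 lower when 1 array was left out. Of 139 numbered zinc finger genes 1 rose and 4 fell, ZNF215 by most (-0.90 ± 0.12), and 0 to 3 were higher and 3 or 4 lower without 1 array. With all arrays 5.71% of the chromatin modifiers were higher and 5.71% lower. These shares were 0.719% and 2.88% for the zinc finger genes and 2.17% and 4.35% for genes of DNA repair. H2AX, the histone marked at DNA breaks, read 10.25 and 10.23 in T104 cells and 10.98 and 10.91 in untreated cells (-0.70 ± 0.14). It was 1 of 2 falls, beside 1 rise, among 46 DNA repair genes. With 1 array left out 0 of the 46 were higher and 1 or 2 lower.

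The falls were smaller. SMIM43, a small membrane protein, read 8.82 and 8.63 in T104 cells and 10.47 and 10.73 in untreated cells, a fall of 1.88 on the log2 scale (SE 0.14, adjusted p = 3.09e-06). GPR183, the oxysterol receptor EBI2 that guides B cells in lymphoid tissue, read 11.57 and 11.75 in T104 cells and 13.37 and 13.42 in untreated cells (-1.73 ± 0.13, adjusted p = 3.09e-06). CD93, a C-type lectin-like receptor, read 7.11 and 7.44 in T104 cells and 8.88 and 8.79 in untreated cells (-1.56 ± 0.17). The arrays of these 3 genes did not overlap. That held for all 626 called genes detected in both groups and for 50.7% of all genes so detected. It therefore adds no separate support for these 3 falls. GPR18, another lymphocyte G protein-coupled receptor, differed by -1.36 ± 0.12.

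SH2D1B, the adaptor EAT-2 that binds SLAM receptors, read 7.89 and 7.60 in T104 cells and 9.16 and 9.15 in untreated cells (-1.41 ± 0.18), whereas SH2D1A, the related adaptor SAP, rose by 1.13 ± 0.14. Both belong to the same signalling system as SLAMF1, which was higher. IRAG2, an endoplasmic reticulum protein of lymphocytes, differed by -1.37 ± 0.14 and KLHL14, a Kelch protein, by -1.36 ± 0.11. LRRC8C, a subunit of volume-regulated anion channels, differed by -1.34 ± 0.14, EFR3B, a membrane anchor of a lipid kinase complex, by -1.34 ± 0.18 and OSBPL10, an oxysterol-binding protein relative, by -1.28 ± 0.14. ATXN1 (-1.46 ± 0.20), MTX3 (-1.25 ± 0.17), STEAP1 (-1.23 ± 0.13) and the transcription factor ZIC2 (-1.21 ± 0.15) complete the 15 largest falls with ARID5B.

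Some genes were detected in untreated cells only. EVA1A, a regulator of autophagy, read 6.08 and 6.01 in T104 cells and 9.07 and 8.71 in untreated cells, at least 3.85-fold lower (adjusted p = 5.73e-07). MIR503HG, a long noncoding RNA beside microRNA genes, was at least 2.55-fold lower, CACNA2D3, a calcium channel subunit, 1.91-fold, and PTPRO, a receptor tyrosine phosphatase, 1.78-fold. ADGRL3 was at least 1.56-fold lower, TENT5C, a poly(A) polymerase, 1.46-fold and SMAD6, an inhibitor of BMP signalling, 1.39-fold.

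**Figure D4:**
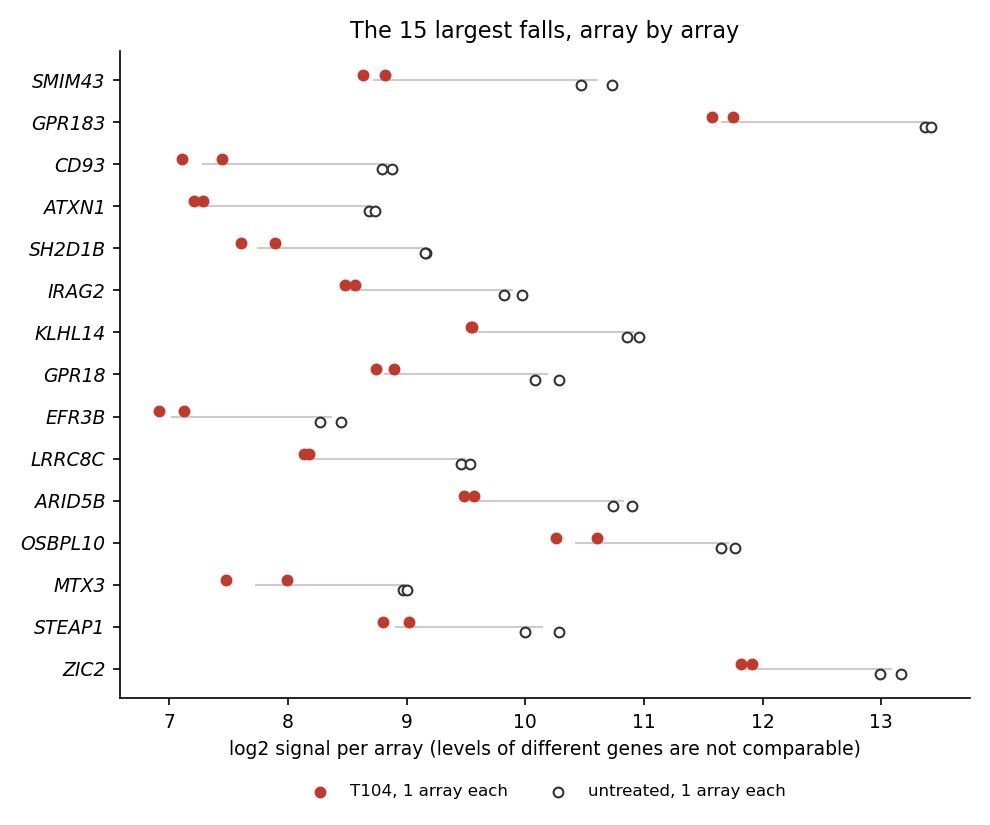
Log2 signal on each array (x axis) for the 15 genes with the largest falls (y axis), with filled red circles for the 2 T104 arrays and open circles for the 2 untreated arrays. The grey line joins the group means. In each gene both T104 arrays lie to the left of both untreated arrays, by group means 1.21 (ZIC2) to 1.88 (SMIM43) apart.

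Genes of growth and division mostly changed by small amounts. In the mitosis list 5 of 67 genes passed as lower (CENPM at -0.52, CCNA2 at -0.48, CENPE at -0.46, SPC24 at -0.45 and CDC25B at -0.44) and 0 as higher, with a median of -0.15. That is 7.46% lower, against 3.13% of all 7289 genes, and 0% higher, against 5.46%. CCNA2 encodes cyclin A2 and CDC25B a phosphatase that activates mitotic kinases, and the other 3 act at the centromere. When 1 array was left out, 0 or 1 of the 67 was lower. In ribosome biogenesis 3 of 57 passed as lower, namely UBTF, a factor for RNA polymerase I (-0.51), NOL6 (-0.46) and GAR1 (-0.42), with the same median and likewise 0 or 1 without 1 array. The share of ribosome biogenesis genes called in all arrays was 5.26% lower and 0% higher. Of 76 mitochondrial ribosomal proteins 3 were higher, among them MRPS11 (0.92 ± 0.14) and MRPL46 (0.86 ± 0.13), and 3 lower. When 1 array was left out 2 were higher and 0 or 1 lower. Under the test limma called 0 of 46 translation factors, 18 aminoacyl-tRNA synthetases, 68 respiratory chain subunits, 23 genes of the tricarboxylic acid cycle, 42 proteasome subunits, 74 cytosolic ribosomal proteins, 122 splicing genes, 26 nucleotide synthesis genes and 22 housekeeping genes, with list medians between -0.16 and 0.02. Of the 437 genes on these 9 lists 36 had an unadjusted p below 0.05, 7 of them higher. Over all 7714 genes, which include those detected in 1 group only, 1798 had an unadjusted p below 0.05.

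T104 cells were also set against the cells given the other CD30 agents at the same dose, in the same fit and over the same 7714 genes. All of these differences share the T104 arrays. Genes detected with another agent but in neither T104 nor untreated cells are left out, which favours higher over lower calls in T104 cells. Against CD30L-Fc, 0 genes were called (0%), and 242 had an unadjusted p below 0.05. The smallest adjusted p was 0.238. The fitted differences over all 7714 genes, some of them below detection in 1 group, ran from -0.91 (HOXB1) to 1.04 (SDHAF4). The 95% interval of a difference reached 0.32 to either side at the median gene. Over the 35 largest rises and falls the T104 minus CD30L-Fc differences lay between -0.34 (MTX3) and 0.49 (CD93), with intervals of 0.25 to 0.45 to either side, and 33 of the 35 intervals held 0. A difference within these limits is not shown to be absent. TNFRSF9 read 11.43 and 11.78 with CD30L-Fc and differed by 0.12 ± 0.15.

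Against PW30, 24 genes were called (0.311%), 18 higher (0.233%) and 6 lower (0.0778%) in T104 cells. The largest were NBPF9 (9.98 and 9.59 in T104 cells against 7.89 and 7.68 with PW30, adjusted p = 0.0355), PHACTR2 (1.38 ± 0.22), SRPK2 (1.27 ± 0.23), ANKRD20A1 (1.25 ± 0.21) and LEPROT (1.16 ± 0.17), and on the lower side ALG1 (-0.78 ± 0.14), H2AB2 (-0.77 ± 0.14) and LY6E (-0.74 ± 0.13). PHACTR2, SRPK2, ANKRD20A1 and LEPROT were not called in T104 against untreated cells (0.53, 0.16, -0.24 and 0.20). With PW30 they differed from untreated cells by -0.85, -1.12, -1.49 and -0.97. SRPK2 read 5.91 and 6.44 with PW30, in the range of genes given above as undetected. H2AB2 was not called against untreated cells either (0.04, and 0.82 with PW30). DOK2 and OR52A5, which neither T104 array detected, were at least 1.35-fold (adjusted p = 0.0463) and 1.24-fold (adjusted p = 0.0469) lower. NBPF9, ANKRD20A1 and H2AB2 belong to families of near-identical copies that a probe may not tell apart. Without T104 replicate 1, or without either PW30 array, 0 genes were called. TNFRSF9 read 11.63 and 11.46 with PW30 and differed by 0.18 ± 0.15 (adjusted p = 0.692). GPR84 (-0.23 ± 0.20), EBI3 (0.04 ± 0.14) and CD80 (0.27 ± 0.16) were not called either.

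T104 cells differed widely from cells given T427 or T408. Against T427, 5.29% of the genes were called, 295 higher (3.82%) and 113 lower (1.46%) in T104 cells. Against T408, 465 were called (6.03%), 319 higher (4.14%) and 146 lower (1.89%). When detection on all arrays of both compared groups was required, 300 were higher and 118 lower against T427. The same requirement gave 308 higher and 140 lower against T408. Leaving out T104 replicate 1 brought the counts to 208 and 236 and leaving out T104 replicate 2 to 230 and 248, while without a T427 array there were 237 or 214 and without a T408 array 227 or 268. With median scaling the T408 split was 208 higher and 239 lower, 46.5% higher against 68.6%.

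TNFRSF9 lay between the extremes, at 9.12 and 9.21 with T427 and 9.07 and 9.25 with T408, so T104 exceeded these by 2.56 ± 0.15 (adjusted p = 1.17e-06) and 2.57 ± 0.15 (adjusted p = 1.31e-06). CD80, at 8.48 and 8.40 in T104 cells, read 5.11 and 5.30 with T427 and 5.41 and 5.25 with T408, below detection on these 4 arrays, and was at least 2.96-fold higher than with T427 (adjusted p = 1.17e-06) and 3.38-fold higher than with T408 (adjusted p = 9.79e-07). ZBTB32 exceeded T427 by 2.57 ± 0.14 and T408 by 2.66 ± 0.14, and EBI3 by 2.60 ± 0.14 and 2.41 ± 0.14. NFKB2 was closer, with 10.19 and 10.10 with T427 and 9.81 and 10.03 with T408, and T104 exceeded these by 0.96 ± 0.13 and 1.19 ± 0.13. CXCL10, likewise below detection with both antibodies, was at least 2.25-fold higher than with T427 (adjusted p = 1.17e-06) and 2.58-fold higher than with T408 (adjusted p = 1.65e-06). Of the falls EVA1A, below detection in T104 cells, was at least 2.69-fold lower than with T427 (adjusted p = 8.79e-06) and 3.11-fold lower than with T408 (adjusted p = 3.63e-06). The T104 difference of GPR183 was -1.41 ± 0.13 against T427 and -1.17 ± 0.13 against T408, and that of SMIM43 -1.40 ± 0.14 and -1.49 ± 0.14. DNAAF19 was among the 5 largest excesses over T408, and CACNA2D3 among the 5 largest shortfalls against both.

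**Figure D5:**
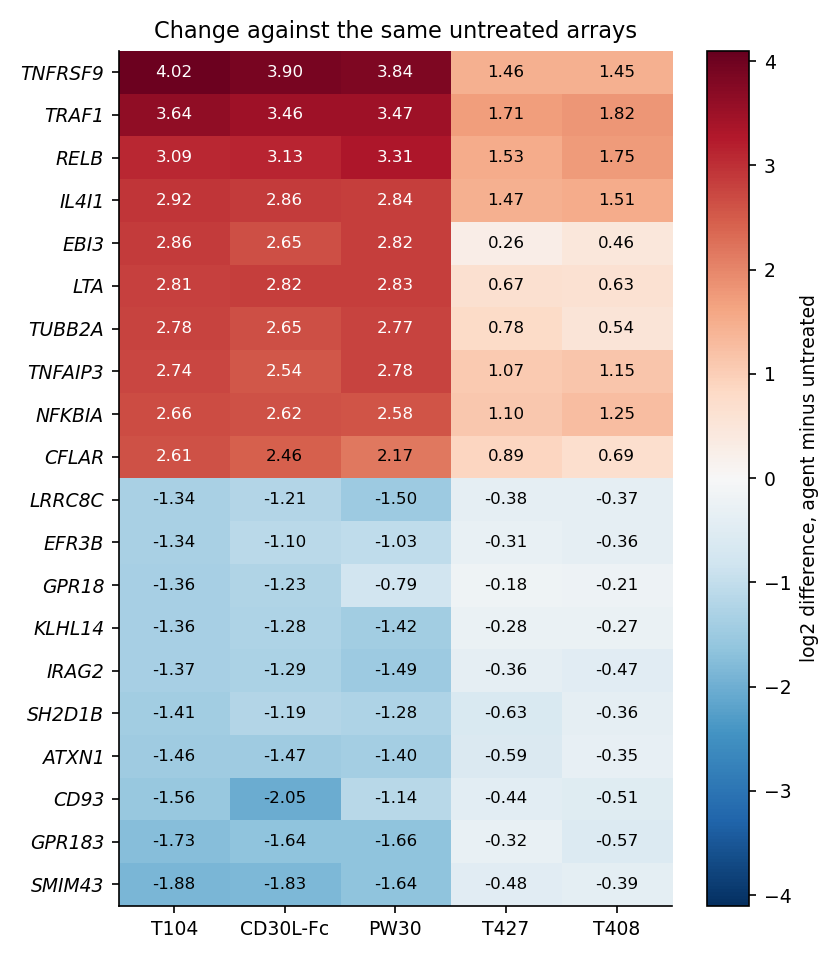
Log2 difference of each agent's mean from the mean of the same 2 untreated arrays (colour and number) for the 10 largest T104 rises and the 10 largest T104 falls (rows) and the 5 agents (columns). TNFRSF9 shows 4.02 with T104, 3.90 with CD30L-Fc, 3.84 with PW30, 1.46 with T427 and 1.45 with T408. The genes were chosen on the T104 column, and all columns share the untreated arrays.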

How the data were processed

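Total RNA of 12 cultures was labelled as biotinylated cRNA and hybridised, per the labels' protocols. The authors used GenomeStudio per the submitters' processing notes and BeadStudio per the design text, with no version stated in the sources used here. The authors' deposited raw table holds, for 48780 probes on each array, the bead signal intensity and beside it a detection p-value, named so per the file headers. The authors' processed table holds intensity without background subtraction that reads as quantile-normalised, a step no label names. In the annotation 28082 probes have 1 gene, 13 have several and 20685 have none. Of the symbols 28043 were updated through RefSeq (GRCh38.p14) and 39 kept.

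Intensities were corrected with normexp from the detection p-values, given an offset of 16, normalised by quantiles and log2-transformed (neqc, limma 3.58.1, R 4.3.3). Detection at p below 0.01 on both duplicates of some group kept 10352 annotated probes, which gave 8113 genes by their brightest probe. A model with 6 group means over 12 arrays was fitted with lmFit and eBayes, two-sided, and adjusted over 8113 genes. The fit was tested on simulated data.

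The named genes were the 20 largest rises and 15 largest falls detected in both groups, the 8 largest each way among genes detected in 1 group, up to 4 called members of each of 83 lists by p (all where 5 or fewer), the 5 largest each way against each other agent, and TNFRSF8. Further list members, called or not, were named after their values were seen. The members, lists and tests were chosen with earlier results of these data known. No slide or scan information was used here. Same-numbered arrays of T104 and untreated cells did not deviate together (r = 0.037).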

Additional observations from a re-analysis of the deposited data

Results flagged for a closer look

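Probes with no gene in the annotation lay outside the comparisons. In a fit of all 11949 detected probes, 1449 such probes were detected on both arrays of T104 or of untreated cells, and 121 were called, 90 higher and 31 lower in T104 cells. Their largest changes were 3.12 and -2.03 on the log2 scale. What flagged them is that a signal above the untreated arrays appears in data that was set aside.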

How the results depend on the processing

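T104 against untreated cells gave 751 calls, 471 when the 4 arrays were fitted alone, 448 without the filter on dim probes, 414 to 545 with 1 array left out and 662 to 898 under the other alternatives. With the replicate number as a block it gave 682, though the numbers do not pair the cultures. Of 240 named genes that were called 163 passed under each alternative that tested them and 0 reversed. The median change of all genes was -0.0449, and -0.0914 with median scaling. Against CD30L-Fc 0 genes were called, except 1 without CD30L-Fc replicate 1 (SDHAF4, 1.37 ± 0.17, adjusted p = 0.0486). The 24 calls against PW30 became 1 with the compared arrays alone, 0 without the filter, 15 with median scaling, 13 with the mean of a gene's probes, 62 without background correction or on the authors' values, 73 with a trended variance prior, and 0 to 12 with 1 array left out. Against T427 there were 231 without the filter and 208 to 237 with 1 array left out, and against T408 248 and 227 to 268. The median-scaled T408 split was 208 higher and 239 lower. Fewer arrays or more genes tested leave fewer calls by construction, and for the other shifts the cause was not tested. With 2 arrays per group and a median SE of 0.14, changes near 0.5 on the log2 scale stood at the edge of what could be called.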
